A study of Mus musculus with 12 samples.

Results

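Cytosolic ribosomal protein genes encode the protein subunits of the cytoplasmic ribosome, the machine that translates mRNA. They were picked from the counts table by their symbols, Rps or Rpl followed by a number with the usual suffixes plus Rpsa and Rplp0 to Rplp2, and by a mean of at least 1 RPKM (read pairs scaled to exon length and library size) over all libraries. S6 kinase genes were left out. The rule matched 84 symbols, and all 84 passed the RPKM minimum, out of 11378 genes that did so and 24421 in the table. They comprised 33 genes of the small (40S) and 51 of the large (60S) subunit, among them the 7 paralogs Rpl22l1, Rps27l, Rpl39l, Rpl3l, Rpl10l, Rps4l and Rpl7l1.

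RNA-seq was performed on mouse embryonic stem (mES) cells of the strain C57BL/6J (B6 in the labels) that were grown in 2i and LIF and carried a dTag degron knocked in at Brg1 (Smarca4), the ATPase gene of the mSWI/SNF chromatin remodeller. The degron lets the small molecule dTAG13 direct BRG1 to destruction. Cells received 0.3, 1, 3, 10 or 100 nM dTAG13 for 24 h, and the 0 nM controls, which carry the same tag, have no treatment in the labels and received DMSO in the study's methods. Each of the 6 conditions had 2 libraries, 12 in all. In the study's methods the tagged cells came from picked colonies that each grew from a single cell. Nothing in the labels says that the libraries of a condition came from separate cultures, while the study calls them independent experiments, so p-values measure the spread between these libraries, which may be partly technical.

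A ribosome needs its subunit proteins in nearly equal numbers, and their genes are among the most transcribed genes of a growing cell. Their mRNAs typically begin with a terminal oligopyrimidine (TOP) tract, a C followed by further C and T bases, through which mTORC1 and LARP1 adjust their translation and stability. In many cell types MYC raises the transcription of ribosomal protein genes and of the factors that assemble ribosomes, and ribosomal proteins that are not built into ribosomes, RPL5 and RPL11 above all, bind MDM2 and stabilise p53.

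Total counts ran from 4663484 to 6375582 per library. Rn45s, the precursor of the large rRNAs, took 10.5% to 19.4% of them, least in 3 nM replicate 1 and next in 10 nM replicate 2 (12.1%). The sample descriptions hold the word total, and the study's methods name the SMART-Seq Stranded Kit. How far library preparation sets the Rn45s share was not tested. Smarca4 mRNA, which does not report on the degraded protein, went from 63.9 ± 0.503 RPKM in the controls to 71.3 ± 0.0942 RPKM (SD, n = 2 each) at 100 nM. The 8 mES cell markers together gave 1994 to 2193 RPKM per library, while the summed level of 6 fibroblast markers reached at most 2.34 RPKM and that of 5 endoderm markers at most 2.04 RPKM. The summed neuroectoderm markers Pax6, Sox1 and Nes gave 4.85 and 5.80 RPKM without dTAG13 against 9.83 and 10.3 RPKM at 100 nM. Over all libraries Nes ranged from 58 to 220 counts and Pax6 from 1 to 28, while Sox1 ranged only from 72 to 103. The 4 trophectoderm markers summed to 15.9 and 16.8 RPKM in the controls and to between 9.33 and 13 RPKM at 3 nM and above. The 3 mesoderm markers summed to 12.99 and 15.84 RPKM in the controls and to between 18.4 and 22.3 RPKM at 3 nM and above. The part of these marker levels in the results below was not tested.

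Ribosomal protein mRNAs were abundant and became slightly less so as the dTAG13 dose rose. Among the 78 genes with a mean count of at least 100 the mean level ran from 28.6 to 3500 RPKM with a median of 650 RPKM, and Rplp1, a stalk protein of the large subunit, was highest. The levels of all 84 genes summed, in the library pairs of the 6 conditions in order of dose, to 65543 and 67897, 65765 and 67426, 65245 and 65470, 63356 and 62482, 61544 and 57937, then 60801 and 60560 RPKM from 0 to 100 nM. All 6 libraries of 3 nM and above lay below all 6 libraries of 1 nM and below. Relative to the mean at 0 nM, the sum stood at 99.8%, 98.0%, 94.3%, 89.5% and 90.9% with rising dose.

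A like split was not seen in shares of all counts, with 5.336% in 3 nM replicate 1 and 4.966% in 0 nM replicate 1. It was seen in raw shares once Rn45s and Rpph1, the RNA of ribonuclease P, were left out of the total. All libraries of 3 nM and above then lay under all others. The margin was narrow, with 6.213% in 3 nM replicate 1 and 6.23% in 1 nM replicate 2. Their 95% Wilson intervals, 6.19% to 6.237% and 6.209% to 6.252%, overlapped. Ribosomal protein genes took 6.24% and 6.53% of the remaining counts at 0 nM, with 95% Wilson intervals of 6.215% to 6.258% and 6.504% to 6.547%. At 10 nM they took 5.94% and 5.71%, and at the highest dose 5.93% and 5.88%. All these intervals cover counting error only, and the gap between the 0 nM libraries was far wider than either of their own. RNA-seq of bulk cells gives shares, so a lower share of these mRNAs and a higher one of others cannot be told apart, nor can less RNA per cell and fewer cells that express a gene.

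**Figure D1:**
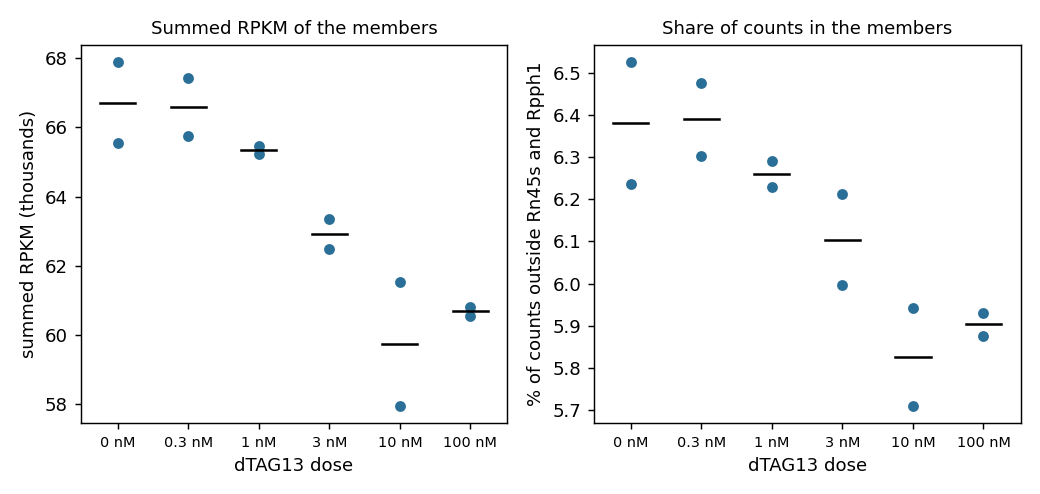
Summed RPKM of the 84 ribosomal protein genes (left) and their share of the counts outside Rn45s and Rpph1 (right, in percent) in each library by dTAG13 dose. Points are libraries and bars their mean, and neither vertical axis starts at 0. The 3, 10 and 100 nM libraries lie below the others in summed RPKM, from 57937 to 63356.

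Both subunits shared in the decline. The 40S genes summed to 30500 ± 903 RPKM without dTAG13 and 27444 ± 111 RPKM at the highest dose (SD, n = 2 each). The 60S genes summed to 36220 ± 762 and 33236 ± 281 RPKM (SD, n = 2 each), which left 91.8% of the control. The median log2 fold change at 100 nM was -0.12 for the 33 40S genes and -0.14 for the 51 60S genes. By the test below, 10 of the 33 and 15 of the 51 were called lower, against 13.3% of all tested genes called lower and 10.1% higher. The ratio of 40S to 60S sums was 0.837 and 0.847 in the control libraries against 0.819 and 0.833 at 100 nM, a gap between conditions close to the gaps within them.

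Gene by gene, doses were set against the control libraries, which all these comparisons share, in edgeR's quasi-likelihood framework. Adjusted p-values are Benjamini-Hochberg values over all 11378 genes, and a gene was called when its value was under 0.05. Standard errors of log2 fold changes (SE) were worked back from the fold change and the F statistic of its test. No ribosomal protein gene was called higher in any comparison. At 0.3 nM none was called lower, with 1 below and 2 above 0 nM at an unadjusted p under 0.05, against 0.0703% of all tested genes called lower and 0% called higher. DESeq2 and the likelihood ratio test also called none at 0.3 or 1 nM. At 1 nM again none was called, with 3 lower and 1 higher at an unadjusted p under 0.05, where 1.52% of all genes were called lower and 0.773% higher.

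The first calls came at 3 nM, where 5 of 84 genes (5.95%) were lower, a share near the 5.25% of all genes called lower there, while 4.15% of all genes were called higher. At 10 nM 31 genes (36.9%) were lower, against 10.1% of all genes lower and 7.87% higher. At 100 nM 25 (29.8%) were lower, against 13.3% of all genes lower and 10.1% higher. A trend over the rank of the dose in all 12 libraries called 48 genes (57.1%) lower, against 15.7% of all genes lower and 13.6% higher. The changes were small. None of the 84 was both called and changed by more than 1.5-fold at any dose, although 6.83% of all genes were so downwards and 4.37% upwards at 100 nM.

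The median log2 fold change of the 84 genes was -0.0036, -0.02, -0.08, -0.15 and -0.12 with rising dose, whereas that of all tested genes lay between -0.0014 and 0.005. At 100 nM the median gene was at 92.0% of its control level, and at 10 nM at 89.8%. The quartiles of the members at 100 nM were -0.19 and -0.07, a narrower range than the -0.21 and 0.22 of all tested genes. Those of the 152 genes outside the group with a mean of at least 300 RPKM were -0.14 and 0.19. Of the 84 genes 76 had a negative fold change at 100 nM, against 5684 of the 11378 tested. In 66 (78.6%) both 100 nM libraries lay below both 0 nM libraries, as they did in 31.2% of all tested genes. In 4 (4.76%) they lay above, as in 30.5% of all tested genes. At 10 nM 61 genes (72.6%) lay below and 3 (3.57%) above, where 27.4% of all tested genes lay on each side.

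How many genes passed the test depended on single libraries. For the refits in this paragraph the shares of all tested genes called were not worked out. A gain or loss of calls among ribosomal protein genes is thus not set apart from one among all genes. Without 0 nM replicate 2, in which 55 of 84 genes stood higher than in replicate 1, the calls went from 5 to 0 at 3 nM, from 31 to 5 at 10 nM and from 25 to 3 at 100 nM. Without 10 nM replicate 2 the 10 nM calls went to 9, and without 100 nM replicate 1 or 2 the 100 nM calls went to 13 or 9. In each case the condition was left with 1 library, which was taken to vary like the other conditions. The median at 100 nM moved less, between -0.14 and -0.11, and the trend called 38 to 48 genes whichever library was left out. Scaling mattered too: with raw library totals, in which Rn45s weighs, 2 genes were called at 10 and at 100 nM. With TMM factors (trimmed means of log ratios) over every listed gene 44 and 55 were called, and there the median log2 fold change at 100 nM was -0.20 for ribosomal protein genes and -0.08 for all tested genes.

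**Figure D2:**
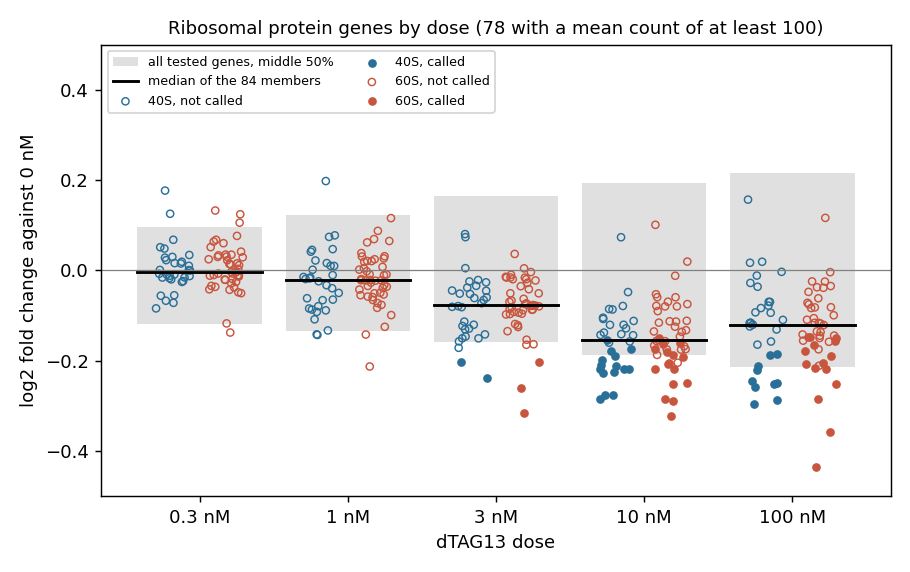
Log2 fold change against 0 nM of the 78 ribosomal protein genes with a mean count of at least 100, by dose and subunit. Filled points were called, black lines are medians of all 84 genes, and grey bars span the middle 50% of all tested genes. The medians go from -0.0036 at 0.3 nM to -0.15 at 10 nM and -0.12 at 100 nM.

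The running numbers of the 0.3 and 3 nM samples in the sample descriptions occur again among those of the other 4 conditions. The numbers of this pair of doses were therefore read as a set of their own, and the labels do not say what they mark. Within that pair, 3 nM against 0.3 nM, 4 ribosomal protein genes (4.76%) were called lower, namely Rpl22l1, Rpl27a, Rpl31 and Rps20, against 2.88% of all genes lower and 2.43% higher, and the median was -0.09. The count went to 0 without 0.3 nM replicate 1, and to 2 without 0.3 nM replicate 2 or 3 nM replicate 1. In the other 4 conditions alone, the 8 libraries of 0, 1, 10 and 100 nM, the trend called 34 ribosomal protein genes (40.5%), each of them lower, against 13.6% of all genes lower and 10.8% higher. The comparisons of 0.3 and 3 nM with 0 nM, and the trend over all 12 libraries, span both sets of running numbers. A difference between the sets cannot be told apart from dose in the former and was not tested in the latter.

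The 5 genes called at 3 nM were Rpl22l1, Rpl31, Rps19, Rps20 and Rplp2. Of the 84 genes 52 (61.9%) were called lower in at least 1 of the 7 comparisons, as were 17.9% of all tested genes, and 32 were called in none.

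**Figure D3:**
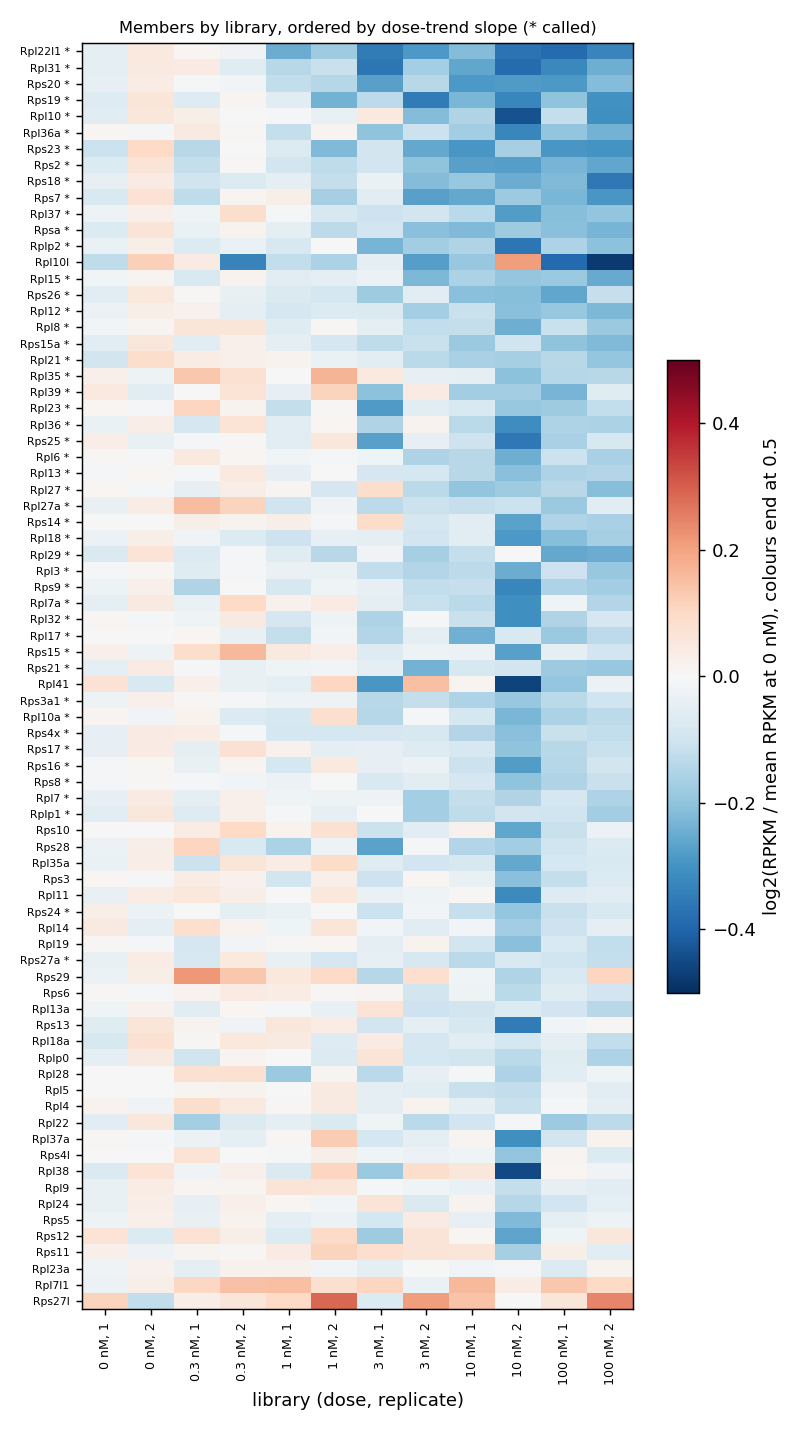
Level of the 78 genes with a mean count of at least 100 in each of the 12 libraries, as log2 of RPKM over the mean RPKM at 0 nM, with colours ending at 0.5 in either direction. Genes run from the steepest fall over the dose at the top, and an asterisk marks the 48 called in the dose trend. Blue fills the columns of 10 and 100 nM for most genes, and 10 nM replicate 2 is the darkest column.

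Rpl22l1, a paralog of the large-subunit protein gene Rpl22, had the steepest slope over the dose among called genes (mm10 chromosome 3, 28805511 to 28807415). It was measured at 175 and 188, 183 and 179, 153 and 161, 143 and 149, 156 and 141, then 139 and 144 RPKM from 0 to 100 nM. From 1 nM upwards every library lay below all 4 libraries of 0 and 0.3 nM. At 100 nM it had fallen by 0.36 on the log2 scale (SE 0.0855, adjusted p = 0.00272), and the call held under all 23 alternatives. Rpl22 itself (chromosome 4, 152324436 to 152334082) had 295 and 319 RPKM in the controls against 271 and 281 RPKM at 100 nM. The log2 fold change of -0.16 had an adjusted p of 0.0474, the highest among the called genes, and 13 of 23 alternatives lost the call. Over the alternatives its adjusted p ran from 0.000137 to 0.408.

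Rpl31, a protein near the exit of the peptide tunnel, lies on chromosome 1 (39367851 to 39371910). Its level was 290 and 308, 307 and 286, 272 and 277, 233 and 266, 250 and 229, then 239 and 252 RPKM from 0 to 100 nM. All libraries of 1 nM and above lay below those of 0 and 0.3 nM. It had fallen by 0.32 on the log2 scale at 10 nM (SE 0.0666, adjusted p = 0.00103) and by 0.28 at 100 nM (SE 0.0664, adjusted p = 0.00232). The latter call was lost without 0 nM replicate 2 or 100 nM replicate 1, with an adjusted p of up to 0.0538.

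Rps20 and Rps19 stood for the small subunit among the genes called from 3 nM. Rps20, a protein of the head of the 40S particle (chromosome 4, 3834473 to 3835600), was at 1771 and 1868, 1812 and 1804, 1671 and 1648, 1509 and 1651, 1493 and 1496, then 1493 and 1567 RPKM from 0 to 100 nM. The 3, 10 and 100 nM values were all below those of 0 and 0.3 nM, and the fall at 100 nM was by 0.25 on the log2 scale (SE 0.0528, adjusted p = 0.000868). Rps19, whose loss of a copy causes Diamond-Blackfan anaemia in people (chromosome 7, 24884714 to 24889802), was at 1111 and 1213, 1111 and 1173, 1121 and 986, 1061 and 912, 993 and 926, then 1012 and 942 RPKM from 0 to 100 nM. The 10 and 100 nM libraries lay below those of 0 and 0.3 nM, and its log2 fold change at 100 nM was again -0.25 (SE 0.0696, adjusted p = 0.0095), and 4 alternatives lost the call, with adjusted p up to 0.157.

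The acidic stalk, which recruits the GTPase factors of translation, is made of RPLP0, RPLP1 and RPLP2. Rplp2 (chromosome 7, 141447650 to 141451342) was at 2035 and 2125, 1986 and 2031, 1967 and 2082, 1772 and 1844, 1874 and 1621, then 1870 and 1804 RPKM from 0 to 100 nM. Its values at 3 nM and above were all under those at lower doses, and at 100 nM the log2 fold change came to -0.18 (SE 0.0588, adjusted p = 0.0282). Without 0 nM replicate 2, without either 100 nM library, with the likelihood ratio test or with raw library totals it was not called, with adjusted p of up to 0.235 over the alternatives. Rplp1 and Rplp0 had log2 fold changes of -0.14 and -0.11 at 100 nM that did not pass the test (adjusted p = 0.0809 and 0.182), and Rplp1 was called in the trend.

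At 100 nM the largest fall among called genes was that of Rpl10l, an intronless copy of the X-linked Rpl10 best known from testis (chromosome 12, 66283379 to 66284401). It gave 28.7 and 34.0, 32.2 and 24.9, 28.8 and 28.1, 30.4 and 25.9, 27.5 and 36.3, then 24.0 and 22.5 RPKM from 0 to 100 nM. Only the 100 nM libraries lay below all others. The log2 fold change was -0.43 (SE 0.15, adjusted p = 0.0377), 5 alternatives lost the call with adjusted p up to 0.305, and the trend did not call it. Rpl10 itself had 878 and 948 RPKM in the controls and 840 and 738 RPKM at the highest dose. Its log2 fold change of -0.21 gave an adjusted p of 0.0578, the first value outside the threshold, and 10 alternatives called it.

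Rps23, a protein of the decoding centre and among the 3 highest genes by level (chromosome 13, 90923122 to 90924732), was at 1849 and 2130, 1808 and 1990, 1897 and 1707, 1867 and 1668, 1627 and 1772, then 1626 and 1616 RPKM from 0 to 100 nM. The 100 nM libraries were the lowest of all, while 0 nM replicate 1 lay within the range of the 1 and 3 nM libraries. It fell by 0.30 on the log2 scale (SE 0.0687, adjusted p = 0.00217), and without 0 nM replicate 2 or with raw library totals it was not called, with an adjusted p of up to 0.113. Rps18, a protein of the 40S head (chromosome 17, 33951999 to 33955641), was at 1209 and 1280, 1162 and 1187, 1203 and 1145, 1215 and 1072, 1091 and 1048, then 1067 and 972 RPKM from 0 to 100 nM. The 100 nM libraries again included the lowest of all. It fell by 0.29 on the log2 scale (SE 0.0612, adjusted p = 0.000914) and missed the threshold only with raw library totals (0.0569).

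Genes with other known roles differed among themselves. Rpsa, a 40S protein also known as the laminin receptor precursor, had 1644 and 1802 RPKM in the controls and 1492 and 1466 RPKM at 100 nM (log2 fold change -0.22, SE 0.0517, adjusted p = 0.00237). Rpl3, near the peptidyl transferase centre, had 1028 and 1043 against 963 and 907 RPKM (log2 fold change -0.15, SE 0.0505, adjusted p = 0.0358), and 8 alternatives lost the call. Rpl5 and Rpl11, which form the 5S particle and can bind MDM2, were called in no comparison. Rpl5 gave 587 and 589 RPKM in the controls and 580 and 565 RPKM at 100 nM, where the log2 fold changes of Rpl5 and Rpl11 were -0.04 and -0.06. Rps6, the substrate of S6 kinase, had a log2 fold change of -0.08 (SE 0.056, adjusted p = 0.346), and Rpl38, known for its part in the translation of Hox mRNAs, one of -0.0038 (SE 0.108, adjusted p = 0.991), a value that turned positive with other scalings. Rps4x, Rpl7, Rpl39 and Rps27a, which encodes a fusion with ubiquitin, passed in the trend and not at 100 nM, where their log2 fold changes were -0.12, -0.12, -0.14 and -0.11.

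The paralogs varied among themselves. Of the 7, Rpl10l and Rpl22l1 were called lower at 100 nM and the others were not called, against 13.3% of all tested genes called lower and 10.1% higher. The median log2 fold change of the 7 at 100 nM was 0.12, against -0.12 for the 77 canonical genes. Rpl39l and Rpl3l, which carry few counts, had the highest values, up to 0.85, and without them the median would not lie above 0. Rps27l, which p53 can induce, had 361 and 307 RPKM in the controls and 348 and 396 RPKM at 100 nM, overlapping groups whose log2 fold change was 0.16 (adjusted p = 0.241). Rpl7l1 had 130 and 135 against 145 and 142 RPKM (log2 fold change 0.12, SE 0.0611, adjusted p = 0.183), and Rps4l 376 and 378 against 380 and 360 RPKM (-0.03, adjusted p = 0.796).

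The 6 genes with a mean count under 100 say little. Rpl26, Rpl30, Rpl34 and Rps27, singled out after their values were seen, are canonical genes at means of 1.58, 5.26, 6.45 and 4.73 RPKM, and Rpl39l and Rpl3l stood at 3.08 and 1.28 RPKM. Rpl26 had 4 and 11 counts in the 0 nM libraries. Standard errors of their log2 fold changes ran from 0.352 to 0.767, against 0.0466 to 0.15 for the other 78 genes, so that changes of the size seen in those could not have been detected here.

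**Figure D4:**
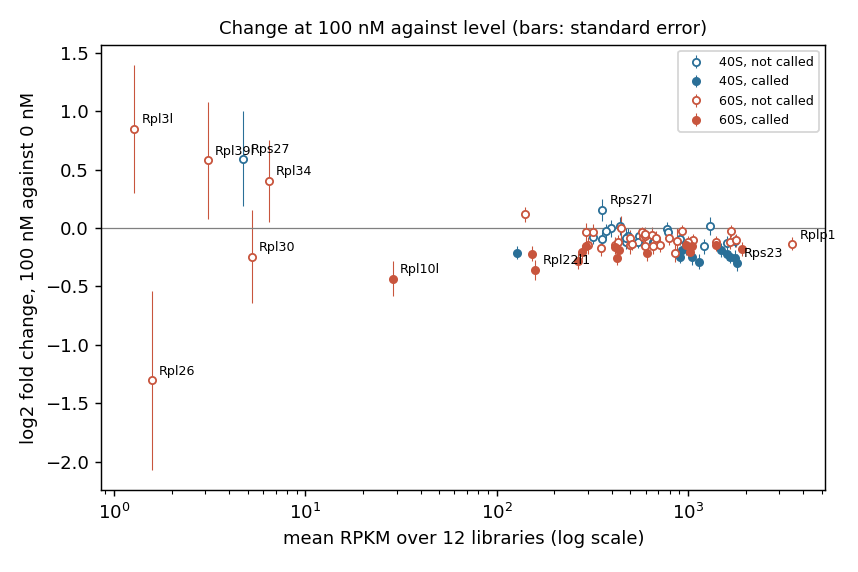
Log2 fold change at 100 nM against 0 nM of all 84 genes by mean RPKM over the 12 libraries, on a log axis. Bars are SEs worked back from the F statistic, and filled points were called. The 6 genes with a mean count under 100 lie to the left with errors of 0.352 or more, and the others lie mostly just below 0.

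Counting left out read pairs that aligned to several places, and ribosomal protein genes have many near-identical processed copies. Every 75-base stretch, the length of a read, was taken from the protein-coding transcripts of 83 members (all but Rps4l) in GENCODE vM21. Each was looked up in the annotated transcripts of genes elsewhere in the genome. Matches in transcripts overlapping a member's own locus were left out, copies outside the annotation were not searched, and the ends of a pair were not combined. The shares therefore do not measure how many read pairs were dropped. In the 77 genes with a mean count of at least 100 a median of 28.2% of stretches occurred in another gene, from 0% to 84.6%, and in 20 genes more than 50% did. In the 6 genes with fewer counts the median was 13.4% and the highest, in Rps27, was 42.4%. Among genes named above it was 67.7% in Rps18, 71.1% in Rpl10, 84.1% in Rps6, 50.3% in Rps23, 42.3% in Rpl22l1 and 6.55% in Rps20, so levels compared between genes are uncertain by different amounts. The related loci Rps27rt and Rpl34-ps1, singled out after the values were seen, had 0 counts in every library.

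The DNA around the annotated starts was read from RefSeq promoter windows on GRCm38.p6 (the mm10 assembly), each with 250 bases before and 50 after the start, which were found for 63 of the 84 genes. A gene was taken to have a TOP-like start where a pyrimidine run of at least 5 bases, beginning with C, held the annotated start base. This was so in 20 of 63 genes (31.7%), against 9.41% of the 27025 genes with a window and 9.74% of tested non-members. It was so in 12 of the 34 genes called in the trend (35.3%) and in 8 of the 29 others (27.6%). The median log2 fold change at 100 nM was -0.10 in the 20 genes with the run and -0.12 in the 43 without. Annotated starts can be off by some bases, so a missing run says only that these letters do not hold that base. The 30 bases around the start, 15 on each side, are shown for Rps18, Rplp2 and Rpl31, which fell and have the run, for Rps6 and Rpl38, which have it and were not called, and for Rpl22l1 and Rps23, which fell and do not have it, with the run in capitals.
Rps18 (chr17:33955651-33955680, minus strand): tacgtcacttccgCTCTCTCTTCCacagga
Rplp2 (chr7:141447636-141447665, plus strand): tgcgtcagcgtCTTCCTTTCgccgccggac
Rpl31 (chr1:39367836-39367865, plus strand): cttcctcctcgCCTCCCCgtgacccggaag
Rps6 (chr4:86857353-86857382, minus strand): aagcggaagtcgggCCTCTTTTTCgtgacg
Rpl38 (chr11:114668565-114668594, plus strand): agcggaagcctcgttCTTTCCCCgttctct
Rpl22l1 (chr3:28805493-28805522, plus strand): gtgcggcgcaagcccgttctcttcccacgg
Rps23 (chr13:90923107-90923136, plus strand): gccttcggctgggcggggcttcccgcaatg

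Other motifs were searched on both strands of the 300-base windows. The letters CCGGAAG, a core of ETS factor sites, were in 26 of 63 member genes (41.3%), in 9.93% of all genes with a window and in 21.9% of the tested genes outside the group. AAGATGG, the core of the YY1 motif, was in 10 (15.9%), against 7.28% of all genes and 8.96% of tested non-members. The E-box CACGTG, which MYC and its partner MAX can bind, was in 6 (9.52%), which is above the 8.09% of all genes and below the 12.6% of tested non-members. TATAAA was in 7 (11.1%), below the 15.7% of all genes and above the 8.13% of tested non-members. None of these letter strings contains another. Members called in the trend held CCGGAAG in 16 of 34 genes (47.1%) and CACGTG in 2, and the others in 10 of 29 (34.5%) and 4.

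Features of the mRNAs themselves were set beside the change. Member mRNAs were short, with a median exon length of 717.5 bases, from 327 to 5134. Non-member genes under 1000 bases had a median log2 fold change of -0.02 at 100 nM, and the 4 length quartiles of non-members had medians between -0.0054 and 0.0106. The 152 non-members with a mean of at least 300 RPKM, the range of 68 members, had a median of 0.03 at 100 nM and -0.01 at 10 nM. Of these abundant genes 19.7% were called lower at 100 nM, 17.1% at 10 nM and 23.0% in the trend, shares above those of all tested genes and below those of the ribosomal protein genes, and 7.89%, 5.92% and 9.87% were called higher. The members lie on 19 chromosomes, and on all of these but chromosome 3 the median of their log2 fold changes at 100 nM was negative. Chromosome 3 holds 4 members, among them Rps27 and Rpl34 with few counts.

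Genes whose products work beside the ribosomal proteins were read in the same fit. Fau, which encodes a ribosomal protein fused to a ubiquitin-like protein and falls outside the symbol rule, had a log2 fold change of -0.14 at 100 nM, Rpl36al one of -0.13 and Gnb2l1, the gene of the 40S-bound protein RACK1, one of -0.08. None of these 3 passed the test (adjusted p = 0.104, 0.333 and 0.304). The elongation factor gene Eef1a1, itself a TOP mRNA, fell from 2081 ± 52.1 to 1868 ± 18.5 RPKM (SD, n = 2 each) at 100 nM, by 0.16 on the log2 scale (SE 0.0483, adjusted p = 0.0201). Eef2 fell at 10 nM (log2 fold change -0.21, adjusted p = 0.00275) and missed the threshold at 100 nM (-0.11, adjusted p = 0.119). Of all tested genes 10.1% were called higher and 13.3% lower at 100 nM. Over all 37 translation factors 5 were called higher and 3 lower at 100 nM, with a median of -0.01. The higher ones included Eif3i (0.30), Eif4h (0.24) and Eif5 (0.23), and the lower ones, beside Eef1a1, Eef1g (-0.23) and Eif1 (-0.18).

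Among ribosome assembly factors more genes rose than fell. Of the 45 tested, 10 were called higher and 1 lower at 100 nM, against 10.1% of all genes higher and 13.3% lower. The median log2 fold change of the 45 was 0.11, and 36 had a positive value. Rrp12, which acts in the export and maturation of both subunits, rose from 23.6 ± 0.188 to 30.6 ± 1.19 RPKM (SD, n = 2 each; log2 fold change 0.37, SE 0.0820, adjusted p = 0.00132). Rrp9, a U3 snoRNP protein, rose by 0.35 on the log2 scale (adjusted p = 0.00833) and Mrto4 by 0.29 (adjusted p = 0.0236). The gene that fell was Tcof1 (log2 fold change -0.22, adjusted p = 0.00428), which helps rDNA transcription. The nucleolar genes Ncl, Npm1 and Fbl had values of -0.0036, 0.05 and 0.11 and were not called. Of 14 genes of RNA polymerase I and its factors Polr1a rose (0.20, adjusted p = 0.00766) and none fell. Rn45s itself varied widely between libraries, with a log2 fold change of -0.08 and a SE of 0.19.

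**Figure D5:**
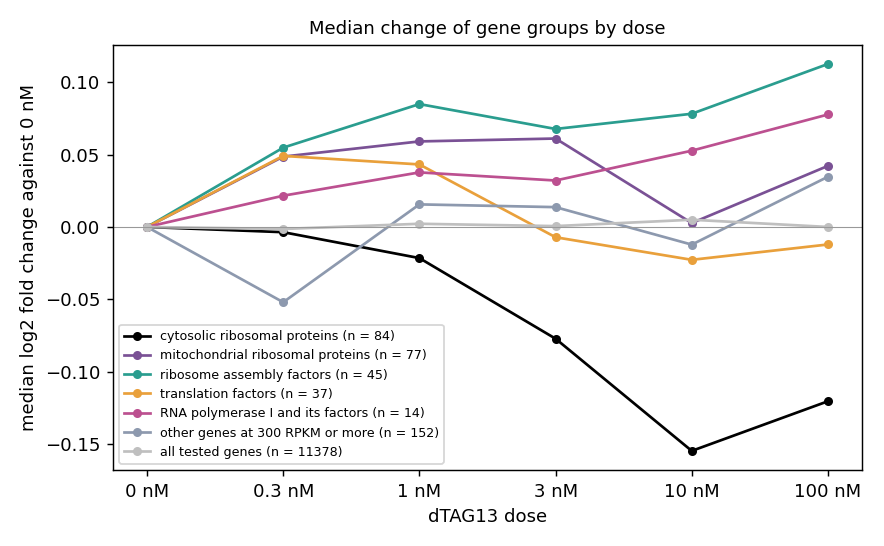
Median log2 fold change against 0 nM of gene groups by dTAG13 dose, with 0 nM set to 0. Lines join the medians, and the number of tested genes stands in the key. Cytosolic ribosomal proteins fall to -0.15 at 10 nM, assembly factors reach 0.11 at 100 nM, and all tested genes stay between -0.0014 and 0.005.

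The 77 mitochondrial ribosomal protein genes build the separate ribosome of mitochondria. At 100 nM, where 10.1% of all genes were called higher and 13.3% lower, 5 of these 77 were called higher and 5 lower. Their median was 0.04. Mrpl21 (0.43), Mrps6 (0.43) and Mrps12 (0.40) were the higher ones with the largest change, and Mrpl14 (-0.94), Mrpl23 (-0.44) and Mrps2 (-0.34) the lower ones. Among 17 genes for chaperones and import of ribosomal proteins 1 rose and 4 fell. Tsr2, which escorts RPS26, rose from 10.0 ± 0.257 to 15.1 ± 1.15 RPKM (SD, n = 2 each; log2 fold change 0.59, adjusted p = 7.27e-05), while Aar2, the importin gene Tnpo1 and Nap1l1 fell by 0.29, 0.22 and 0.21 on the log2 scale. Ipo9 fell as well (-0.19).

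Known regulators of these genes were measured too. Myc, whose product drives ribosomal protein genes in many cells, rose from 24.1 ± 0.326 to 46.1 ± 2.54 RPKM (SD, n = 2 each) at 100 nM, by 0.94 on the log2 scale (SE 0.0805, adjusted p = 1.73e-09), and Mycn rose from 30.4 ± 1.12 to 72.8 ± 0.521 RPKM (SD, n = 2 each), by 1.26 (SE 0.0770, adjusted p = 3.23e-12). At the same dose the ribosomal protein genes stood at a median of -0.12, and 10.1% of all tested genes were called higher and 13.3% lower. Of the 21 genes of mTORC1 and TOP regulation 3 rose and 1 fell: Larp1, the TOP-binding repressor, rose by 0.36 on the log2 scale (adjusted p = 2.2e-05), as did Akt1s1 (0.36) and Cnbp (0.22), and Larp7, known for binding 7SK RNA, fell (-0.40). In the list of 14 genes of nucleolar stress and p53 response 2 rose and 4 fell. Pmaip1 (0.62) and Cdkn1a (0.39) rose, and Mdm2 (-0.28), Mdm4 (-0.26), Ccng1 (-0.21) and Trp53 (-0.20) fell, so that p53 target genes were found on both sides.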

How the data were processed

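RNA-seq libraries of mES cells with degron-tagged BRG1 at 6 doses of dTAG13, 2 per dose, were analysed. The authors deposited raw counts of read pairs per gene symbol, with exon lengths and mm10 coordinates. Per the study's methods, file header and submitters' notes, reads were trimmed with Trim Galore, aligned with HISAT2 and assigned to exons by featureCounts. Only pairs whose ends both aligned were counted, multi-mapped pairs were dropped and strand was ignored. Conditions came from the sample labels. The deposited counts were not normalized, all columns belong to the 12 libraries, and median depth was 5956670 counts.

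R 4.3.3, edgeR 4.0.16 and DESeq2 1.42.0 were used. Genes averaging 1 RPKM or more (TMM factors over all genes, exon lengths) were tested. TMM factors were then computed on the tested genes, and these also scale every RPKM printed. The 6 conditions were fitted together with edgeR's quasi-likelihood test, with contrasts of each dose against 0 nM, 3 nM against 0.3 nM, and a slope per dose step. The common biological coefficient of variation was 6.20%. The study's methods name edgeR's likelihood ratio test, which was an alternative. A gene was called at an adjusted p under 0.05. Steps were tested on simulated counts, in which falls larger than the members' median change were planted in well-counted genes only. That run does not show how often changes as small as the members' median would be called.

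Members and gene lists were chosen with earlier results of these data known. Named members are, of those called at 100 nM, the 5 that fell most (none rose), the 3 highest and 3 lowest by mean RPKM, and genes of known roles and paralogs. Rps20 and Rpl27a were named for their calls, after values were seen. Other genes are those of known roles and up to 3 per list and direction. Where a list had a 4th called gene, it was named after its value was seen. Deviations of same-numbered libraries correlated above 0.1 in 0 of 15 pairs of conditions, and the main fit did not pair libraries. Low correlations cannot show that same-numbered libraries shared no culture or preparation. Libraries of a condition differed by more than sampling noise, with chi-square per degree of freedom from 2.03 to 18.0. Alternatives covered test, normalization, filter, fit, replicate block, fold minimum, dose scale and each library left out.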

Additional observations from a re-analysis of the deposited data

How the results depend on the processing

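No ribosomal protein gene was called higher under any alternative run, and none was called at 0.3 or 1 nM. The median log2 fold change was negative at 1, 3, 10 and 100 nM under every alternative, and at 0.3 nM it crossed 0. With the likelihood ratio test 2, 12 and 16 genes were called at 3, 10 and 100 nM, and with DESeq2 3 and 17 at 3 and 10 nM. With no normalization factors the calls were 0, 2 and 2 at 3, 10 and 100 nM, 13 in the trend and 0 for 3 against 0.3 nM, with medians of -0.0303, -0.0971 and -0.0788 at 3, 10 and 100 nM. Without the filter they were 14, 54, 57 and, for 3 against 0.3 nM, 17, with medians of -0.12, -0.20 and -0.20. With TMM factors over all genes, added after the data were seen, they were 10, 44, 55 and 11, with the same medians of -0.12, -0.20 and -0.20, while the median of all tested genes moved to -0.08 at 100 nM. Fits of only the conditions compared called 3, 19 and 39 genes at 3, 10 and 100 nM, and 1 for 3 against 0.3 nM. With a minimum fold change of 1.5 all these counts were 0. Shares of all tested genes called were not worked out for the other alternatives, here and in the next paragraph. Their counts do not set ribosomal protein genes apart from a gain or loss of calls among all genes.

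Leaving out both 3 nM replicate 1 and 10 nM replicate 2, with the lowest Rn45s shares (also added later), gave 13, 11 and 38 calls at 3, 10 and 100 nM, 8 for 3 against 0.3 nM and a median of -0.11 at 10 nM. With 1 library left out, calls ran from 0 to 7 at 3 nM, 5 to 44 at 10 nM, 3 to 32 at 100 nM, 0 to 6 for 3 against 0.3 nM and 38 to 48 in the trend. Medians ran from -0.03 to 0.02 at 0.3 nM, -0.051 to -0.0117 at 1 nM, -0.10 to -0.06 at 3 nM, -0.21 to -0.11 at 10 nM and -0.14 to -0.11 at 100 nM. Of 28 named members 11 had the same call at 100 nM under every alternative. Deviations of same-numbered libraries correlated above 0.1 in 0 of 15 pairs, which cannot show that they shared no culture or preparation. With a replicate block 5, 26, 25 and 45 genes were called at 3, 10 and 100 nM and in the trend, and 4 for 3 against 0.3 nM. The trend on a log2 dose scale called 42 genes. With 2 libraries per dose and changes of this size, calls of single genes are less firm than the direction of the group, and the cause of the differences between scalings was not tested.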
